A study of Arabidopsis thaliana with 30 samples.

Results

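The genes described here are those of the 26S proteasome: 36 loci of Arabidopsis thaliana, chosen by locus from a list of its subunits, among the 37513 entries of a table of read counts per gene. They comprise 8 genes for 20S alpha subunits (PA genes), 8 for 20S beta subunits (PB genes), 10 for the RPT ATPases and 10 for the RPN subunits. All 36 passed the filter on low counts, which left 19761 genes to be tested. Leaves of 3 lines were sampled: wild type plants of ecotype Columbia (WT), line L12, which overexpresses (OE) Ah2880, and line L13, which overexpresses AhHAB4-PAI-1. Ah2880 codes for a small protein of unknown function and AhHAB4-PAI-1 for a hyaluronan and mRNA binding protein, both from grain amaranth, and each transgene was driven by the CaMV 35S promoter, which is active in most tissues. Plants were 4 weeks old by their labels and were held at 45 °C for 1 h (HS-1), 5.5 h (HS-5) or 11 h (HS-11), or for 22 h followed by 1 day (R-1) or 3 days (R-3) at 22 °C. These 15 treatments had 2 libraries each, made from pooled leaves of separate sets of plants. Each OE genotype is represented by 1 transgenic line, and every library is from heated plants, so no comparison with unheated leaves was made. Neither transgene has an A. thaliana locus among these genes, so its level was not checked. In leaf RNA, fewer cells and less RNA per cell cannot be told apart.

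The 26S proteasome is the main protease that removes ubiquitin-tagged proteins from the cytosol and nucleus. Its 20S core is a barrel of alpha rings, which form the gate, and beta rings, of which some subunits carry the proteolytic sites. The 19S regulatory particle holds a ring of RPT ATPases that unfold the substrate and push it into the core, and RPN subunits that act as scaffold, ubiquitin receptors and deubiquitylase. In A. thaliana, subunit genes are known to be induced together when the proteasome is impaired or damaged proteins accumulate, through the NAC transcription factors NAC53 and NAC78 and a promoter element with the core TGGGC.

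The promoter windows of 3 genes with large differences between treatments are shown first, because they hold that core within 25 bases of sequence that can be compared directly. PBA1 (AT4G31300) is a catalytic beta subunit, RPT3 (AT5G58290) an ATPase of the base, and ATS9 (AT1G29150, also named RPN6) a scaffold subunit of the lid. Sequences are from the RefSeq assembly TAIR10.1, written 5′ to 3′ in the direction of the gene, which was the plus strand for all 3, with TGGGC or its complement GCCCA in capitals.
PBA1, chr4:15188625-15188649: aagtaggtatTGGGCttgtatttgg
PBA1, chr4:15188665-15188689: aaatatgtatTGGGCttttatttgg
PBA1, chr4:15188705-15188729: aaatagatatTGGGCtttcacgttt
RPT3, chr5:23568968-23568992: atatcaaaacTGGGCcttactatga
RPT3, chr5:23568989-23569013: atgacaaaagGCCCAtttaatctat
ATS9, chr1:10180253-10180277: ttgtatatatTGGGCctttagtctg
These matches began between 109 and 29 bases before the annotated start of transcription. In PBA1 the 3 copies stood 40 bases apart, each preceded by tat.

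Across all members, TGGGC on either strand occurred in the window from 250 bases before to 50 bases after the start in 22 of 36 genes (61.1%). It occurred in 11 of 20 further subunit genes that are not members (55%) and in 7132 of 27443 protein coding genes (26%). The longer form TGGGCC, which contains TGGGC, was found in 16 members (44.4%) and in 15.5% of all genes. The core of the heat shock element, searched as GAANNTTC, was found in 4 members (11.1%) and in 11.6% of all genes. These matches describe letters in a window and are not shown to be binding sites. The 22 members with TGGGC and the 14 without had these median fold changes. In WT from HS-5 to HS-11 the median log2 fold change was 1.56 with the motif and 1.66 without, and in L13 against WT at HS-11 it was -1.63 with and -1.74 without.

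Between 46825 and 5739590 counts were assigned per library, and at least 686550 outside WT R-3. The 2 WT R-3 libraries stood apart: 25 and 20 of the 36 members had at most 3 counts there, and their summed leaf marker level was 879 and 1057 CPM (counts relative to the scaled library total), against 5628 to 38743 in the other 28 libraries. Root markers summed to 641 and 655 CPM in them and to at most 189 CPM elsewhere, while seed markers were at most 1.90 CPM in those 28. The root sum in WT R-3 came from AT3G09260 alone, as AT5G42180 and AT2G36100 were at 0 CPM in both libraries. Results that need WT R-3 are therefore given only as counts. CPM were scaled by TMM factors, which adjust for differences in RNA composition, so each fold change below is relative to the bulk of the other genes. The factors ran from 0.710 to 1.21 among the HS-11 libraries of WT and L13, and where scaling to the plain library total changes a result, this is said.

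The subunit genes moved as a block. In WT their summed level was 2949 and 2969 CPM at HS-1, 2041 and 2019.7 CPM at HS-5, 6021 and 6229.8 CPM at HS-11 and 2582 and 2445 CPM at R-1. L12 had a peak at the same stage, with 3341 and 3213 CPM at HS-1, 2475 and 2165 CPM at HS-5, 5264 and 5178 CPM at HS-11 and 1890.0 and 1739.9 CPM at R-1. L13 had no peak there. With TMM scaling its libraries were highest at HS-1, with 3277 and 3336 CPM. They held 2188 and 2302 CPM at HS-5, 1786 and 1769.6 CPM at HS-11 and 2886 and 2319 CPM at R-1. The sum at HS-11 was thus 3.02 times that at HS-5 in WT, 2.25 times in L12 and 0.79 times in L13, and WT exceeded L13 at HS-11 by 3.45 times. The same contrast without TMM scaling was smaller. Members took 0.446% and 0.443% of all counts in WT at HS-11, 0.453% and 0.454% in L12 and 0.213% and 0.214% in L13, and the ratio of WT to L13 was 2.08. On this measure the rise from HS-5 to HS-11 was 2.10 times in WT, 2.00 times in L12 and 1.05 times in L13. The order of the other stages changed too. In L13 members took 0.193% and 0.196% of counts at HS-1 and most at R-1, 0.347% and 0.289%. In WT they took 0.201% and 0.205% at HS-1 and 0.340% and 0.328% at R-1.

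**Figure D1:**
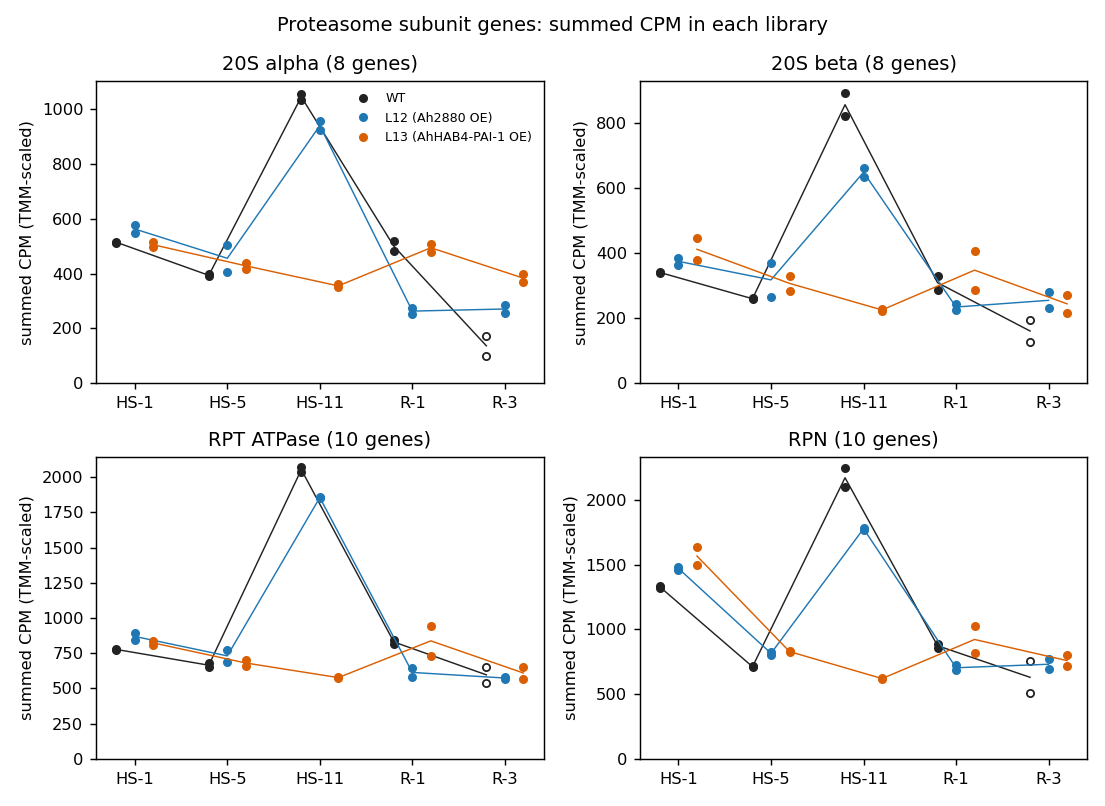
Summed CPM (TMM-scaled, y axis from 0) of the genes of each role in every library, by stage (x axis) and line (colour). Each point is 1 library, lines join the means of 2 libraries, and open points are the shallow WT R-3 libraries. In all 4 roles WT and L12 peak at HS-11, where both L13 libraries lie lowest.

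The rise in WT between HS-5 and HS-11 included all members. All 36 genes rose by edgeR's quasi-likelihood test (adjusted p under 0.01, Benjamini-Hochberg over all genes), where 21.6% of all genes tested rose. Their median log2 fold change was 1.61 (range 0.61, for RPT2b, AT2G20140, to 2.56), against -0.32 over all genes. The 2 WT libraries at HS-11 lay above both at HS-5 for all 36 members, while groups did not overlap for 81% of all genes. The 8 alpha genes had a median of 1.64, the 8 beta genes 1.81, the 10 RPT genes 1.57 and the 10 RPN genes 1.50. Scaled to library totals, all 36 still had a positive fold change, 29 passed the test and the median was 1.09. Of the leaf and root markers AT2G39730 alone was called in this step, and it rose (log2 fold change 0.44). The part of these markers was not tested.

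Among the alpha subunits, PAE1 (AT1G53850), a ring subunit of the core, rose most of all members in WT. It was at 9.20 and 9.39 CPM at HS-5 and at 67.3 and 45.9 CPM at HS-11, a log2 fold change of 2.56 ± 0.23 (SE, edgeR's quasi-likelihood test, adjusted p = 4.5e-14). In L12 it reached 25.7 and 39.6 CPM at HS-11, below both WT libraries, and in L13 it was at 9.21 and 9.84 CPM, the WT level at HS-5. PAA1 (AT5G35590) had the smallest range of the alpha genes, with 19.6 and 25.3 CPM at HS-5 and 39.1 and 43.2 CPM at HS-11 in WT. PAB1 (AT1G16470) was at only 0 to 16.3 CPM in the 28 libraries outside WT R-3, so its wide range of 3.02 on the log2 scale rests on few counts. It was the only member not called in L13 against WT at HS-11, where its log2 fold change was -0.94 ± 0.36 (adjusted p = 0.022).

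Among the beta subunits, PBA1 (AT4G31300), whose 3 TGGGC copies are shown above, had the widest range of 2.56. It was at 27.6 and 29.3 CPM in WT at HS-5, at 138 and 154 CPM at HS-11 and at 34.5 and 28.2 CPM at R-1. In L12 at HS-11 it was at 79.3 and 72.3 CPM and in L13 at 26.1 and 22.0 CPM, so the 3 lines did not overlap at this stage. PBE1 (AT1G13060), another catalytic beta subunit, went from 31.6 and 32.0 CPM to 115 and 135 CPM in WT, and was at 24.1 and 27.6 CPM in L13 at HS-11. PBD1 (AT3G22630), a structural beta subunit, had the smallest range, 1.39, with 47.8 and 50.7 CPM at HS-5 and 88.0 and 98.7 CPM at HS-11 in WT.

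RPT3 (AT5G58290) had the widest range of the ATPases. Its level in WT was 179 and 177 CPM at HS-5, 729 and 732 CPM at HS-11 and 167 and 163 CPM at R-1. L12 followed with 667 and 661 CPM at HS-11, whereas L13 stayed at 142 and 130.3 CPM. The rise in WT was 2.04 ± 0.12 on the log2 scale (SE, edgeR's quasi-likelihood test, adjusted p = 4.4e-21). AT5G20000, a second gene of the RPT6 type, went from 39.4 and 40.0 CPM to 176 and 161 CPM in WT, and was at 40.2 and 41.3 CPM in L13 at HS-11. RPT4A (AT5G43010) had the smallest range, 1.26, and did not rise in L12. It was at 58.6 and 36.3 CPM in WT at HS-11 but at 21.9 and 33.4 CPM in L12, where it had been at 35.8 and 33.2 CPM at HS-5.

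Of the RPN genes, ATS9 (AT1G29150) had the widest range, 2.72, and was high at HS-1 as well. In WT it was at 609 and 635 CPM at HS-1, 172 and 179.5 CPM at HS-5, 833 and 954 CPM at HS-11 and 165 and 164 CPM at R-1. It thus fell before it rose. The fall had a log2 fold change of -1.82 ± 0.12 and the rise one of 2.35 ± 0.12 (SE, edgeR's quasi-likelihood test, adjusted p = 1.4e-19 and 1.0e-23). The high level at HS-1 was seen in L12 (538 and 606 CPM) and L13 (698 and 827 CPM) as well, but at HS-11 L13 held 139.7 and 129 CPM. EMB2107 (AT5G09900, an RPN5 gene of the lid) went from 58.4 and 55.0 CPM to 202 and 186 CPM in WT and was at 46.7 and 48.2 CPM in L13 at HS-11. AT4G24820, annotated as Rpn7, varied least of all 36 members, with a range of 0.86, and rose from 77.8 and 74.2 CPM to 114 and 132 CPM. AT2G32730, annotated as the scaffold subunit Rpn2, was the 1 member with its highest mean outside HS-11, at 236 and 222 CPM in L12 at HS-1.

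**Figure D2:**
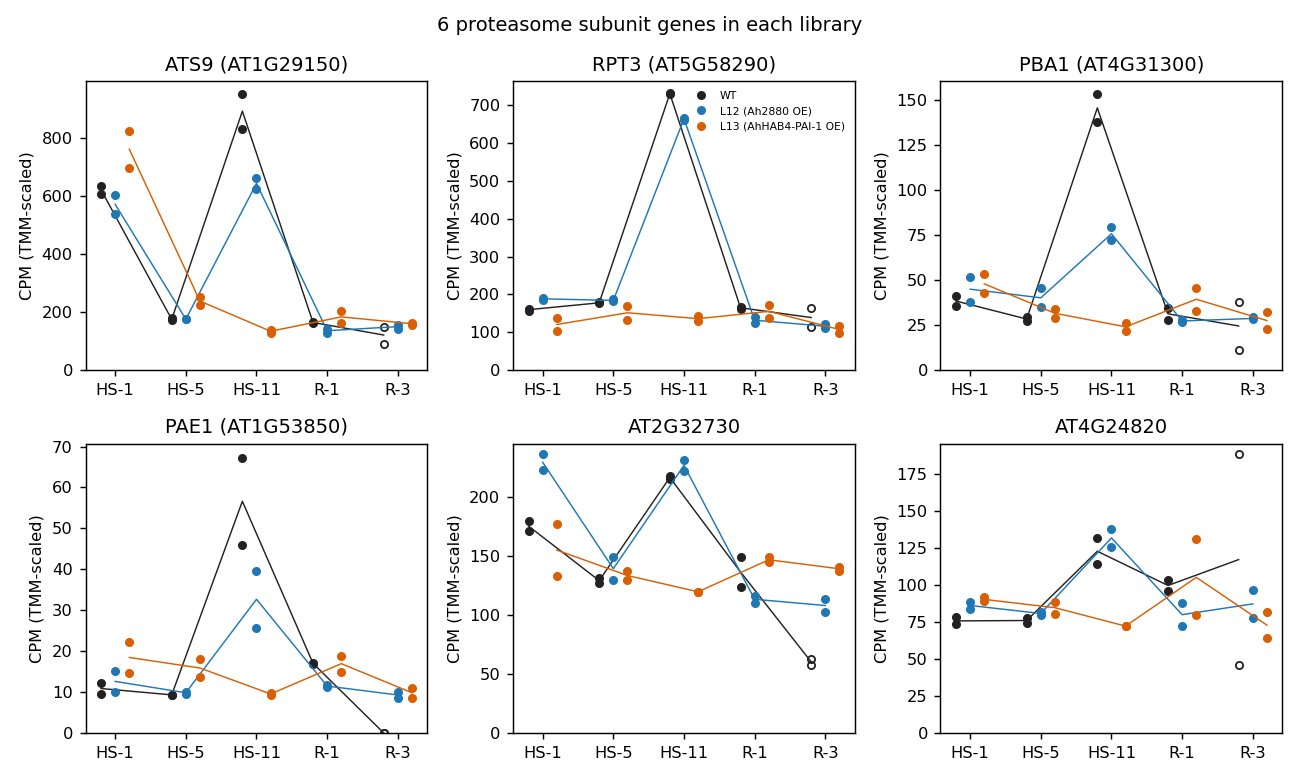
CPM (TMM-scaled, y axes from 0) of 6 subunit genes in each library, by stage and line, with lines joining the means of 2 libraries and open points for WT R-3. ATS9 is high at HS-1 and HS-11, RPT3 at HS-11 alone, and AT2G32730 and AT4G24820 vary least.

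Levels per length also set the members apart. In WT at HS-11, ATS9 (AT1G29150) stood at 413 CPM per kilobase of exon, RPT3 (AT5G58290) at 353 and PAF1 (AT5G42790) at 237. At the low end PAB1 (AT1G16470) had 9.75 and RPT4A (AT5G43010) 28.6. The median level per kilobase was 53.2 for alpha, 81.6 for beta, 86.7 for RPT and 76.1 for RPN genes. In L13 at that stage these medians were 17.3, 20.4, 22.2 and 26.2 CPM per kilobase.

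**Figure D3:**
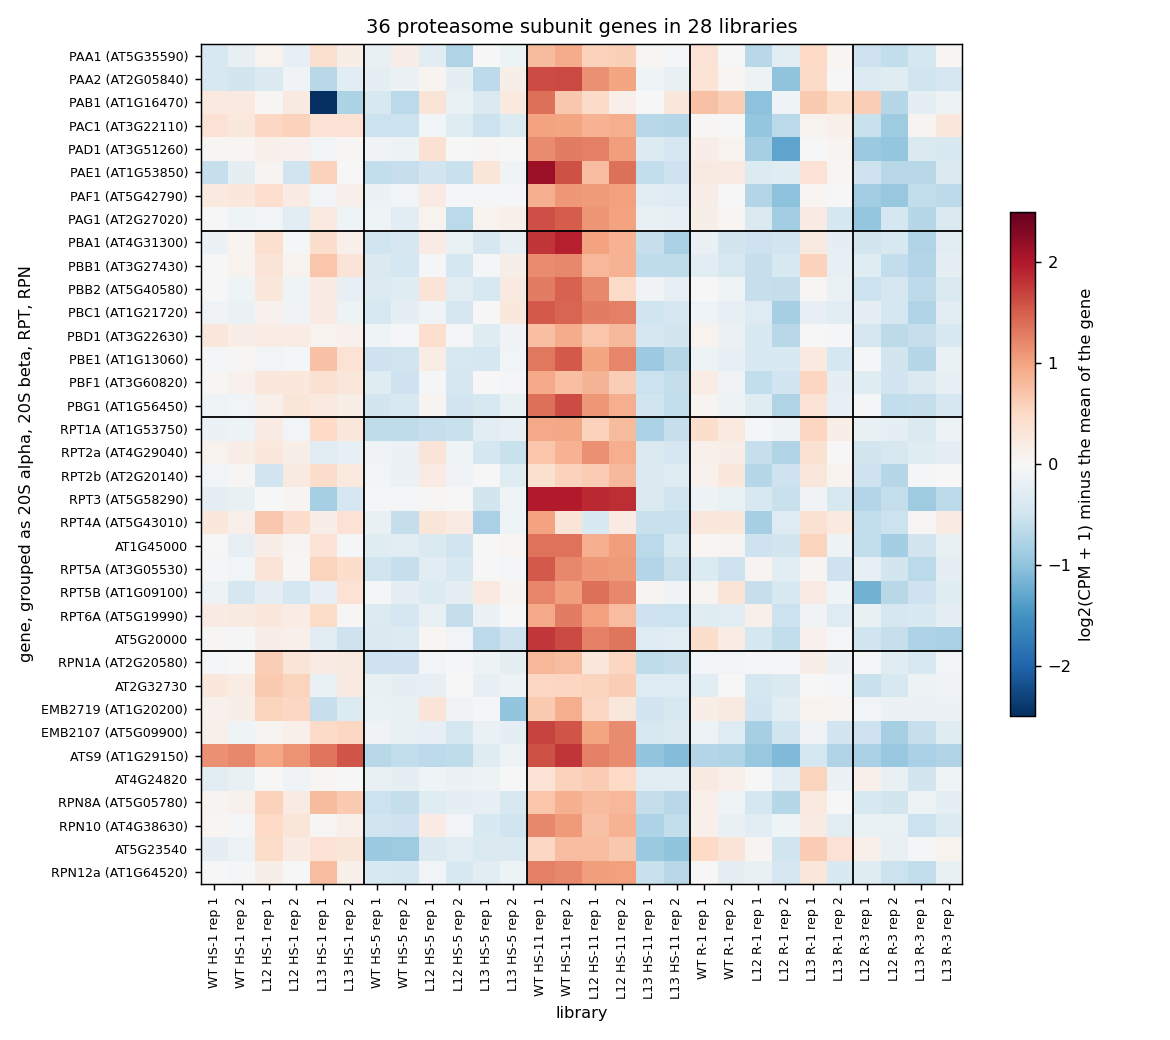
Level of the 36 genes (rows, grouped by role) in 28 libraries (columns, by stage and line), as log2(CPM + 1) minus the mean of the gene. Red is above and blue below that mean. The 4 columns of WT and L12 at HS-11 are red for nearly all genes, and the 2 columns of L13 at HS-11 resemble those of HS-5.

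The question of how OE of either gene alters the response to heat was addressed by comparing each line with WT at the same stage. L13 at HS-11 was the one such comparison in which most members were called. There, 35 of 36 members were lower than in WT, where 23.6% of all genes tested were lower, and no member was higher. The median log2 fold change was -1.67 (range -2.73 to -0.78), against 0.30 over all genes. The 2 libraries of L13 lay below both WT libraries for all 36, while groups did not overlap for 82% of all genes. By role, 7 of 8 alpha (median -1.66), 8 of 8 beta (-1.93), 10 of 10 RPT (-1.67) and 10 of 10 RPN genes (-1.57) were lower. ATS9 (AT1G29150) had the largest difference, -2.73 ± 0.12 (adjusted p = 2.2e-26), followed by PBA1 (AT4G31300) with -2.60 ± 0.17 and PAE1 (AT1G53850) with -2.52 ± 0.22. With library totals alone, 29 members were lower, all 36 had a negative fold change and the median was -0.94, while the median of all genes was then 1.03. All 3 leaf markers were lower in L13 as well, with log2 fold changes from -0.98 to -0.54 and summed levels of 8647 to 8821 CPM against 13709 to 15343 CPM in WT. Of the 3 root markers 1 was lower (AT3G09260, -1.45), and their sum was 23.4 to 24.8 CPM in L13 and 56.2 to 56.5 CPM in WT. The part of these markers in the result was not tested. L12 differed from L13 at this stage in the same way, a comparison added after the data had been seen: 33 members were lower in L13 than in L12 (21.6% of all genes), with a median of -1.47.

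L13 at HS-11 was close to the HS-5 state for these genes, and over all genes fewer changed in L13 as well. From HS-5 to HS-11, 1590 of all 19761 genes rose and 2307 fell in L13. In WT 4265 rose and 5510 fell, and in L12 3809 rose and 5192 fell. In L13 itself, 5 of 36 members fell from HS-5 to HS-11, near the share of all genes that fell (11.7%), and none rose. They were ATS9 (AT1G29150), PBB1 (AT3G27430), RPT5A (AT3G05530), AT1G45000, an RPT4 gene, and AT5G23540, of the family of the RPN11 deubiquitylase. The median over all 36 was -0.27, and 16 members were lower at an unadjusted p under 0.05. With library totals ATS9 alone kept its call and 2 other members rose. Leaving out any 1 library of the pair reduced the 5 calls to between 1 and 3: L13 HS-5 replicate 1 or 2 or HS-11 replicate 1 left 1, and HS-11 replicate 2 left 3. Against WT at HS-5, also compared after the data had been seen, L13 at HS-11 showed 0 members called by edgeR's quasi-likelihood test and 0 by DESeq2, and at an unadjusted p under 0.05 there were 1 higher and 5 lower (median -0.16). Over all 19761 genes 1023 (5.18%) were higher and 1587 (8.03%) lower in that comparison. In L13 against WT at HS-11, 5836 were higher and 4654 (23.6%) lower, so the closeness to WT at HS-5 was not particular to the members. Fitted on those 4 libraries alone, 5 members were lower. Whether the L13 libraries labelled HS-11 differ from the others in how they were treated was not tested.

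The change between stages was tested against that in WT directly. From HS-5 to HS-11 it was lower in L13 than in WT for 34 of 36 members (20.2% of all genes), with a median difference of -1.86 on the log2 scale. From HS-11 to R-1 it was higher in L13 for 35 members (20.3% of all genes), with a median of 1.67. Both differences share the HS-11 libraries and are not independent of each other. With library totals they held for 26 and 22 members. From HS-1 to HS-5, 0 members differed between either OE line and WT by this test and 0 by DESeq2. Of all genes 3.18% were higher and 2.02% lower for L12, and 5.03% higher and 2.46% lower for L13. At an unadjusted p under 0.05 the change was lower for 1 member in L12, and higher for 1 and lower for 1 in L13.

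**Figure D4:**
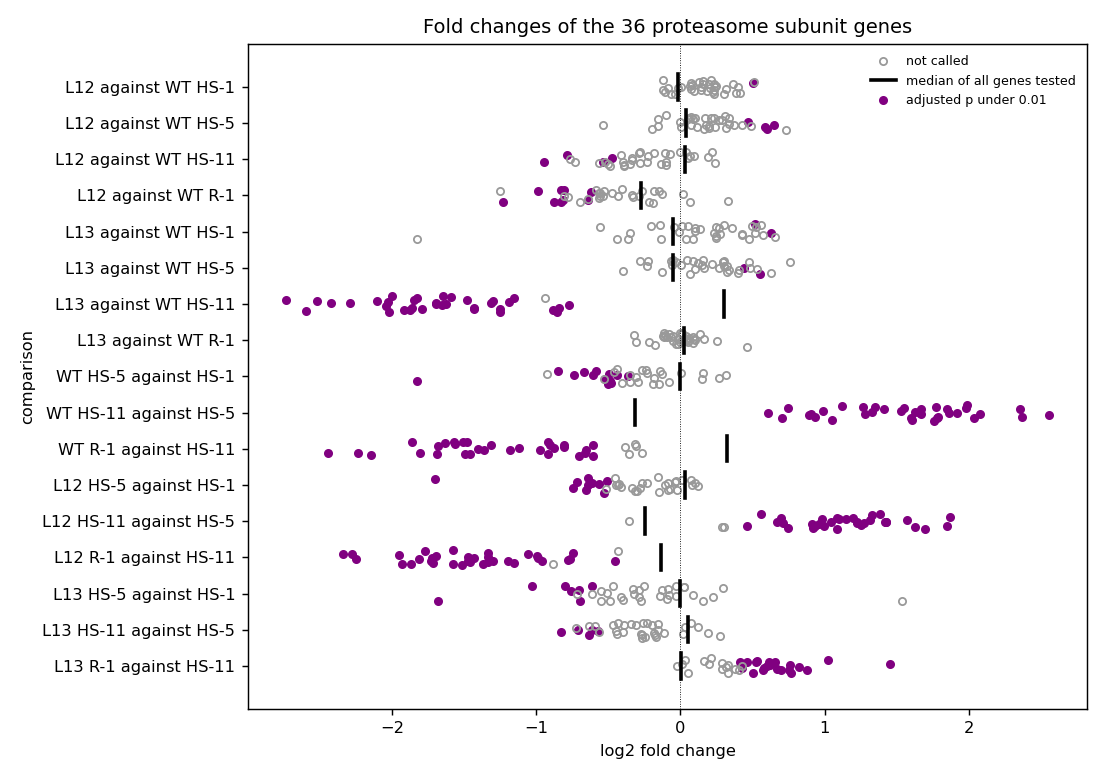
Log2 fold change (x axis) of the 36 genes in 17 comparisons between lines or successive stages (y axis). Filled points passed an adjusted p under 0.01, open points did not, and the black bar is the median of all genes tested. The 36 points of L13 against WT at HS-11 lie left of 0, and those of WT at HS-11 against HS-5 lie right of it.

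L12 rose as well between HS-5 and HS-11. From HS-5 to HS-11, 33 members rose in L12 (19.3% of all genes) and none fell, with a median of 1.09. The 3 others were PAB1 (AT1G16470), RPT4A (AT5G43010) and EMB2719 (AT1G20200), an RPN3-type lid subunit, at log2 fold changes of 0.30, -0.36 and 0.29. In this step the leaf marker AT1G29930 fell (-0.94), as did the root markers AT3G09260 (-0.70), AT5G42180 (-4.81) and AT2G36100 (-2.44). The other leaf markers were not called, and the part of these markers was not tested. At HS-11, 4 of 36 members were lower in L12 than in WT, where 4.98% of all genes were lower. These were PBA1 (AT4G31300, -0.94 ± 0.17), PAE1 (AT1G53850, -0.79 ± 0.22), EMB2107 (AT5G09900, -0.54 ± 0.14) and ATS9 (AT1G29150, -0.47 ± 0.11), with adjusted p from 3.5e-05 to 0.0098. Their number fell to between 1 and 3 when 1 library was left out (2 without WT HS-11 replicate 1 or L12 HS-11 replicate 2, and 1 without L12 HS-11 replicate 1). With library totals 1 member was lower and 1 higher, and the median moved from -0.28 to -0.02. The leaf marker AT2G39730 was also lower in L12 at HS-11 (-0.46), and the other leaf and root markers were not called. The change from HS-5 to HS-11 was lower in L12 than in WT for 5 members (6.33% of all genes), a count that was 3 without WT HS-11 replicate 1 or L12 HS-11 replicate 1 and 9 without L12 HS-5 replicate 2. It was 2 with library totals and 0 with libraries thinned to one depth.

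At the earlier stages the lines differed in few members. Each count of members called higher, out of 36, was near or under the share of all genes called higher. At HS-1 RPN1A (AT2G20580), a scaffold and receptor of the base, was the 1 member called higher in L12, where 2.98% of all genes were higher. It was at 143 and 116 CPM in L12 and at 90.0 and 91.2 CPM in WT, but the call was lost without either WT library or L12 replicate 1. In L13 at HS-1 RPT1A (AT1G53750) and RPN8A (AT5G05780), an ATPase and a lid subunit, were higher (6.77% of all genes), with RPN8A at 72.5 and 65.1 CPM against 43.4 and 44.4 CPM in WT. Both calls were lost whichever of the 4 libraries was left out, and with library totals 5 members were lower and none higher. Tissue markers moved at HS-1 too. In L12 the root marker AT5G42180 was higher than in WT (log2 fold change 6.04), and the other root and leaf markers were not called. In L13 the root marker AT3G09260 was lower (-1.22) and the leaf marker AT1G67090 higher (0.50), and the others were not called. The part of these markers was not tested.

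At HS-5, 4 of 36 members were higher in L12, near the share of all genes (12.1%). They were RPT4A (AT5G43010), RPN1A (AT2G20580), the ubiquitin receptor RPN10 (AT4G38630) and AT5G23540. RPT4A was at 35.8 and 33.2 CPM in L12 against 25.0 and 18.8 CPM in WT, and AT5G23540 at 60.9 and 65.6 CPM against 41.2 and 42.3 CPM. The count was 1 without WT replicate 1 or L12 replicate 1 and 0 without WT replicate 2. In L13 at HS-5, 2 of 36 members were higher, under the share of all genes (8.61%). They were ATS9 (AT1G29150) and AT5G23540, with ATS9 at 224 and 253 CPM against 172 and 179.5 CPM in WT. Neither was called without WT replicate 1, WT replicate 2 or L13 replicate 2, and with library totals 2 members were lower and none higher. Of the root and leaf markers, AT5G42180 alone was called in L12 at HS-5, and was higher (5.91). In L13 the root markers AT3G09260 (-2.42) and AT2G36100 (-3.68) were lower, the latter from 4.75 CPM in WT. The leaf markers AT1G67090 (0.63) and AT2G39730 (0.87) were higher. The part of these markers was not tested.

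Between HS-1 and HS-5 the members tended to lower levels relative to other genes. In WT 13 fell (21% of all genes), in L12 10 (17.4%) and in L13 7 (13.5%), and none rose in any line. The medians were -0.36, -0.31 and -0.30. These directions depended on scaling: with library totals 9 members rose and 1 fell in WT, 5 rose and 1 fell in L12, and 4 rose and 1 fell in L13. The 1 that fell in each line under both scalings was ATS9 (AT1G29150). All 3 leaf markers fell in this step too, with log2 fold changes from -1.42 to -0.81 in WT and -1.51 to -0.54 in L12. The root marker AT3G09260 fell (-0.79 in WT, -0.66 in L12) and AT2G36100 rose (2.87 and 2.71). The part of these markers was not tested. In WT the count of 13 was between 4 and 6 when any 1 of its 4 libraries was left out, in L12 the 10 became 3 without HS-1 replicate 1, and in L13 the 7 became 4 without replicate 1 of either stage.

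Levels fell from HS-11 to R-1 in WT and L12. The R-1 plants had been heated for 22 h rather than 11 h, and no library was made at the end of that heat. Further heat and recovery thus cannot be told apart in this step. In WT 31 members were lower (25.3% of all genes) with a median of -1.15, and ATS9 (AT1G29150) fell most, by 2.44 ± 0.12 on the log2 scale. In L12 34 were lower (29.1% of all genes) with a median of -1.44. All 3 leaf markers fell in this step as well, with log2 fold changes from -2.17 to -0.48 in WT and from -1.47 to -0.82 in L12. The root marker AT3G09260 rose in L12 (1.40), and no root marker was called in WT. The part of these markers was not tested. In L13 21 members rose (24.9% of all genes) with a median of 0.48, and this number was 8 without R-1 replicate 1 and 11 or 12 without 1 of the HS-11 libraries. With library totals the fall in WT held for 17 members and 3 rose, while 24 fell in L12 and 23 rose in L13. At R-1 the 36 members of L13 centred on the WT level (median 0.00), with 0 called by edgeR and 0 by DESeq2, where 4.71% of all genes were higher and 2.42% lower. Without adjustment, 1 member was higher and 1 was lower at p under 0.05. The L13 libraries at R-1 differed from each other, with a summed level of 2886 and 2319 CPM, and 1 member was called without replicate 2.

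L12 at R-1 was lower than WT in 9 of 36 members, where 18% of all genes were lower. None was higher. The median was -0.56, against -0.28 over all genes, and 33 of 36 members had a negative fold change. At an unadjusted p under 0.05 by the same test, 24 were lower and none higher. PAD1 (AT3G51260), an alpha subunit, was the lowest of the 9, at 52.8 and 37.2 CPM in L12 against 106 and 99.7 CPM in WT, a log2 fold change of -1.23 ± 0.16 (SE, edgeR's quasi-likelihood test, adjusted p = 1.1e-08). The others were PAC1 (AT3G22110), PAF1 (AT5G42790), RPT2a (AT4G29040), RPT2b (AT2G20140), RPT4A (AT5G43010), AT5G20000, RPN8A (AT5G05780) and AT5G23540, between -0.62 and -0.99. Of the 8 beta genes 0 were called (median -0.50). Without L12 R-1 replicate 2 the count was 4. The change from HS-11 to R-1 was lower in L12 than in WT for 5 members (12.5% of all genes), for 10 with library totals and for 0 with libraries thinned to one depth. These 5 of 36 were near the share of all genes, with a median of -0.22 against -0.37 over all genes. Tissue markers moved in the comparison of L12 with WT at R-1 too. Of 3 leaf markers 1 was lower (AT1G29930, log2 fold change -0.48) and none higher, and their summed level was 5628 to 5851 CPM in L12 and 6362 to 7426 CPM in WT. Of 3 root markers 1 was higher (AT3G09260, 1.29), and their sum was 145 to 157 CPM in L12 and 60.0 to 63.5 CPM in WT, while the other 2 were at or near 0. The part of these markers in the result was not tested.

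From R-1 to R-3, L12 had 0 members called by edgeR and 0 by DESeq2, with 0 at an unadjusted p under 0.05 (0% of all genes were called). In L13 8 members were lower at R-3 (6.7% of all genes, median -0.43), a count of 2 without R-1 replicate 1 or R-3 replicate 1 and of 14 without R-1 replicate 2. Against WT R-3, 0 members were called in L12 (4.1% of all genes were higher and 1.11% lower) and 0 by DESeq2. Without adjustment, 6 were higher and 1 was lower at p under 0.05. In L13 2 were higher (11.7% of all genes), 0 without WT R-3 replicate 1 and 1 without replicate 2. From WT R-1 to WT R-3, 3 members were lower (7.88% of all genes), and 1 without R-3 replicate 1.

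For 6 subunits both gene copies are members, and the share of the first copy in the CPM of a pair is given as a description. Their coding sequences were between 80.7% identical (RPT5A and RPT5B) and 94.4% identical (RPT6A, AT5G19990, and AT5G20000), so reads in identical stretches could have been discarded or assigned to either copy and the shares are uncertain. PAA1 (AT5G35590) held 50.8% ± 3.6 (SD, n = 2) of the pair with PAA2 (AT2G05840) in WT at HS-5, 34.4% ± 1.5 at HS-11, 39.3% ± 2.1 in L12 at HS-11 and 50.4% ± 0.23 in L13 at HS-11. PAA2 went in WT from 21.0 and 22.1 CPM to 78.2 and 78.8 CPM. RPT6A held 49.2% ± 1.1 in WT at HS-5 and 39.7% ± 5.2 at HS-11, and 46.0% ± 0.96 in L13 at HS-11. RPT4A (AT5G43010) held 34.0% ± 5.0 of its pair with AT1G45000 in WT at HS-5, 25.9% ± 6.3 at HS-11 and 21.0% ± 3.9 in L12 at HS-11. At HS-11 PBB1 held 65.1% ± 2.2 of its pair with PBB2 in WT and 60.5% ± 1.6 in L13. RPT2a held 77.7% ± 0.056 and 73.2% ± 1.1 of its pair with RPT2b, and RPT5A 78.0% ± 1.4 and 66.2% ± 3.7 of its pair with RPT5B. The differences in share between treatments were not tested. The exons of 12 members overlap those of another annotated gene, and how reads there were assigned is not known. For PBB1 (AT3G27430) and RPT3 (AT5G58290) the other gene lies on the same strand.

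Genes of the proteasome system outside the 36 were taken from 4 further lists. Their counts stand beside those of all 19761 genes. From HS-5 to HS-11 in WT, 4265 of all genes (21.6%) rose and 5510 fell, and with library totals 2419 rose and 8649 fell. In L13 against WT at HS-11, 5836 were higher and 4654 (23.6%) lower, and with library totals 10052 were higher and 2353 lower. The list of 20 further subunit genes held copies of member subunits and also subunits without a member, such as RPN13 (AT2G26590). Of these 20, 19 were tested. In WT from HS-5 to HS-11 13 rose and 1 fell (median 0.90). In L13 against WT at HS-11 14 were lower and 1 higher (median -1.05). With library totals 9 rose and 1 fell, and 6 were lower and 2 higher. The exception in both under TMM scaling was AT1G53780, annotated as a 26S regulatory complex ATPase. It was at 50.6 and 54.6 CPM in WT at HS-5, 9.77 and 13.7 CPM at HS-11, 16.4 and 11.7 CPM in L12 and 74.4 and 80.5 CPM in L13 at HS-11. Its log2 fold change in L13 against WT was 2.67 ± 0.24 (SE, edgeR's quasi-likelihood test, adjusted p = 3.2e-14), the opposite of the RPT members. RPN5B (AT5G64760), the other RPN5 gene, had the largest rise of this list in L12, from 8.35 and 8.44 CPM to 36.6 and 51.3 CPM.

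Of 9 genes for assembly and regulation, 4 rose and 1 fell in WT from HS-5 to HS-11, and 4 were lower and 1 higher in L13 against WT at HS-11. With library totals 4 rose and 2 fell, and 3 were lower and 2 higher. The transcription factors NAC78 and NAC53 went opposite ways. NAC78 (AT5G04410) was at 178 and 199 CPM in WT at HS-5 and at 484 and 514 CPM at HS-11, and in L12 it went from 99.2 and 93.4 CPM to 407 and 432 CPM. In L13 it was at 203 and 198 CPM and then at 134 and 126 CPM, a log2 fold change of -1.94 ± 0.12 against WT at HS-11. NAC53 (AT3G10500) was at 27.8 and 29.3 CPM in WT at HS-5, at 16.3 and 13.0 CPM at HS-11 and at 47.6 and 43.3 CPM in L13 at HS-11, a log2 fold change of 1.67 ± 0.23 against WT. AT1G67250, annotated as a maturation factor of the UMP1 family, which assists assembly of the core, was at 13.6 and 13.0 CPM in WT at HS-5, at 45.6 and 58.3 CPM at HS-11 and at 11.9 and 11.2 CPM in L13 at HS-11. The other UMP1 gene of the list, AT5G38650, was not called, at 27.6 and 24.6 CPM in WT at HS-5, 15.2 and 19.9 CPM at HS-11 and 24.0 and 23.4 CPM in L13 at HS-11. With library totals it fell in WT (-1.06) and was higher in L13 (1.13).

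Substrate delivery and ubiquitin genes were also counted. The 13 genes of the delivery list code for ubiquitin shuttles, CDC48 segregases and deubiquitinases of the proteasome. Of these, 9 rose and none fell in WT (median 1.43), and 8 were lower and none higher in L13 against WT at HS-11 (median -1.44). With library totals 7 rose and none fell, and 7 were lower and 3 higher. CDC48 (AT3G09840) and AtCDC48B (AT3G53230), ATPases that extract ubiquitylated proteins from complexes and membranes, were lower in L13 by the widest margin of this list. AtCDC48B was at 476 and 488 CPM in WT at HS-5, at 1791 and 1879 CPM at HS-11, at 1762 and 1687 CPM in L12 and at 217 and 223 CPM in L13. Its log2 fold change in L13 against WT was -3.06 ± 0.12, the largest difference in the 4 lists, and in L12 at HS-5 it was at 156 and 160.1 CPM. All 7 ubiquitin and ubiquitin-activating genes rose in WT (median 0.90) and were lower in L13 (median -1.26). With library totals 4 rose and 5 were lower, and UBQ3 (AT5G03240), at 0.54 under TMM scaling, had a log2 fold change of 0.02 in WT. Polyubiquitin UBQ14 (AT4G02890) went from 1073 and 1091 CPM to 4178 and 4270.4 CPM in WT and was at 2203 and 2249.8 CPM in L12 and 678 and 672 CPM in L13 at HS-11. Polyubiquitin genes are made of near-identical repeats and their counts are uncertain.

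**Figure D5:**
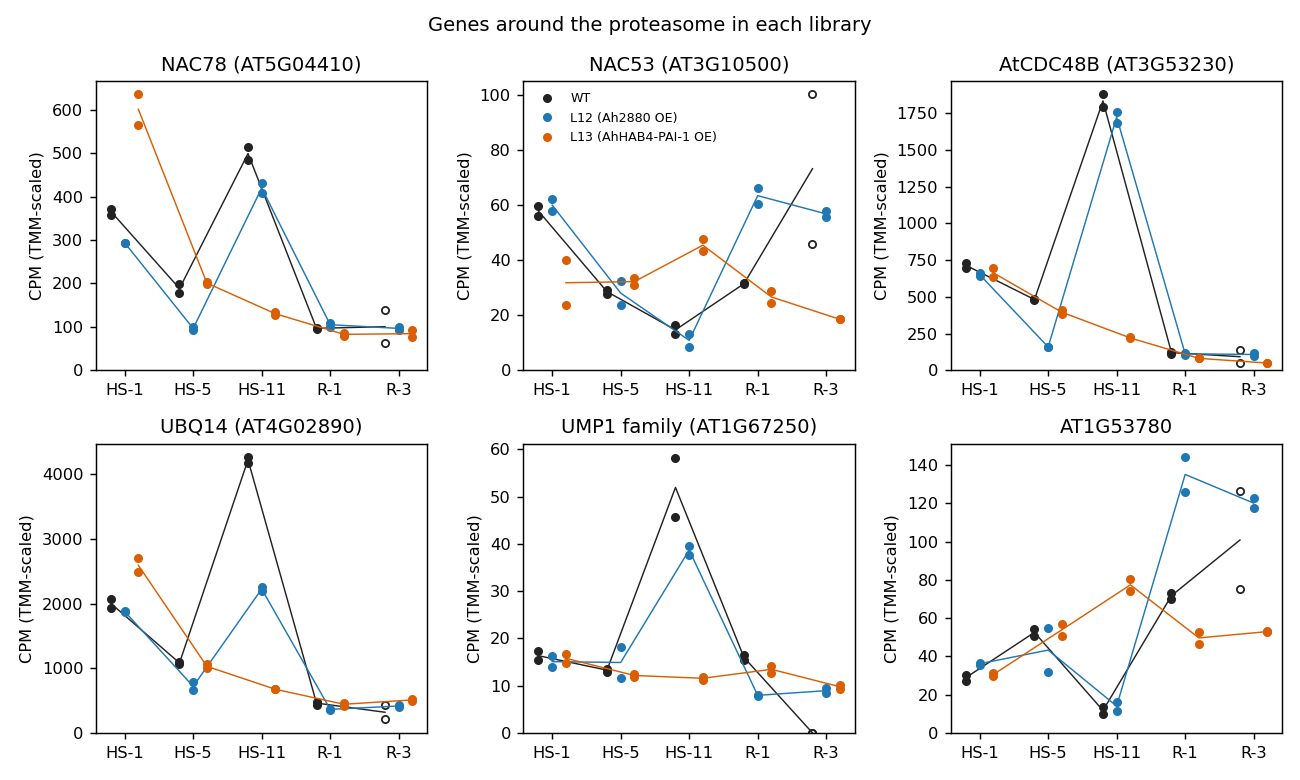
CPM (TMM-scaled, y axes from 0) of 6 genes around the proteasome in each library, by stage and line, with open points for WT R-3. NAC78, AtCDC48B, UBQ14 and the UMP1 family gene share the peak of WT and L12 at HS-11, and NAC53 and AT1G53780 are lowest there in WT and L12.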

How the data were processed

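Whole-gene read counts were used as deposited by the authors, without normalization. Per the study's methods, clean reads were mapped to TAIR10 (Bowtie2), duplicates were discarded (Picard) and reads were assigned to genes (Subread). The annotation release and strand setting are not given in the sources used here. The table had 0 columns that belonged to no sample. The tests were run with edgeR 4.0.16 under R 4.3.3: filterByExpr by treatment (19761 genes kept), TMM factors, 1 mean per treatment and the quasi-likelihood test (legacy set to FALSE). P-values were adjusted over all genes by the Benjamini-Hochberg method with a threshold of 0.01. The common dispersion was 0.00596 (biological coefficient of variation 0.0772), with 15 residual and 37.2 prior degrees of freedom. Standard errors are the size of the log2 fold change over the square root of F. DESeq2 1.42.0 was an alternative, and the test was checked on simulated data. Tables and figures were made in Python 3.11.15 with Biopython 1.88 and Matplotlib 3.10.9.

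The members and lists were chosen with earlier results of these data known. Named were, per role, the 2 members with the widest and the 1 with the narrowest range over the 14 treatments other than WT R-3, the highest and lowest called member per comparison, both copies of duplicated subunits, the extreme called genes of the other lists, NAC53 and NAC78. Other names were chosen after their values were seen. From the assembly list 5 loci whose role the reference does not annotate were dropped. Gene names, exon lengths and promoters are from RefSeq TAIR10.1. Replicate numbers were not taken as pairs, because only 3 of 91 correlations between same-numbered deviations exceeded 0.1 (range -0.21 to 0.14). The labels call the 2 libraries of a treatment biological replicates, and p-values measure only the spread between such libraries. Comparisons of L13 at HS-11 with L12 at HS-11 and with WT at HS-5, and scaling to library totals (members and lists), were added after seeing the data.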

Additional observations from a re-analysis of the deposited data

Results flagged for a closer look

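The change between stages differed between an OE line and WT by the test of the difference itself (edgeR's quasi-likelihood test, adjusted p under 0.01) in 4 of 6 such contrasts. From HS-5 to HS-11 it was lower than in WT for 34 members in L13, where 20.2% of all genes were lower, and for 5 in L12, where 6.33% were. From HS-11 to R-1 it was higher than in WT for 35 members in L13, where 20.3% of all genes were higher, and lower for 5 in L12, where 12.5% were. The latter 5 of 36 were near the share of all genes, and the median was -0.22 for members and -0.37 for all genes. The L12 counts became 2 and 10 with library totals and 0 and 0 with libraries thinned to one depth, and the first ran from 3 to 9 on leaving out 1 library. Both L13 contrasts rest on the same 2 L13 and 2 WT libraries at HS-11, and their causes were not tested. No group had 4 or more libraries, so single libraries were not tested for standing apart.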

How the results depend on the processing

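The calls across the group (L13 against WT and against L12 at HS-11, the rise from HS-5 to HS-11 in WT and L12, the fall in L12 at R-1, and the changes of L13 against WT from HS-5 to HS-11) kept the direction of their counts under all alternatives, with counts within 1.5 times, though the fold change of 1 called member turned with library totals (RPN1A, given with those values). Most counts of 13 or fewer depended on settings, and the cause was not tested except where fewer counts or libraries entered. Thinned to one depth, no member was called in L12 against WT at any HS stage or in L13 against WT at HS-1 or HS-5 (0 each), nor in the changes of L12 against WT from HS-5 to HS-11 (0) and from HS-11 to R-1 (0). L12 against WT at R-1 then gave 3, HS-5 against HS-1 gave 2 in WT, 3 in L12 and 1 in L13, L13 at HS-11 against HS-5 gave 1 and at R-1 against HS-11 gave 5, where PAD1 (AT3G51260) turned to -0.046. Depth thus limits these counts. DESeq2 called 2 in L12 against WT at HS-1, 6 in L13 against WT at HS-1, 2 in L13 at HS-11 against HS-5, and in the opposite direction 1 in L13 against WT at R-3 and 1 in WT at R-3 against R-1. DESeq2 size factors gave 15 in L12 against WT at R-1, 6 in L13 against WT at HS-1 and 14 in L13 at R-3 against R-1. That last count was 16 without the WT R-3 libraries and 15 with no filter, which left 0 in L12 against WT at HS-1. Fitted on the compared libraries only, counts were 6 and 2 for L12 against WT at HS-1 and HS-5, 4, 4 and 0 for L13 against WT at HS-1, HS-5 and R-3, 22 (21 lower and 1 higher) for WT at HS-5 against HS-1, 1 for WT at R-3 against R-1, 12 for L13 at HS-11 against HS-5, 2 for L13 at R-3 against R-1 and 5 for L13 at HS-11 against WT at HS-5.

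With library totals, added after seeing the data, each HS stage gave 2 for L12 against WT, and counts were 5 and 2 lower for L13 against WT at HS-1 and HS-5, and, mostly higher, 10, 6 and 5 for HS-5 against HS-1 in WT, L12 and L13 and 3 for L13 at HS-11 against HS-5. They were 20 for WT at R-1 against HS-11 and 19 for L13 at R-3 against R-1. The changes of L12 against WT gave 2 (HS-5 to HS-11) and 10 (HS-11 to R-1), and that of L13 from HS-11 to R-1 gave 22. Log2 fold changes turned positive in WT at HS-5 against HS-1 for RPT4A (AT5G43010, 0.016), RPN1A (AT2G20580, 0.11) and RPT5A (AT3G05530, 0.11), in WT at R-1 against HS-11 for PAA1 (AT5G35590, 0.18), RPN1A (0.0017), RPN8A (AT5G05780, 0.068) and RPT2a (AT4G29040, 0.22), and in L12 at R-1 against HS-11 for RPN1A (0.13). Leaving out 1 library gave 0 to 1, 0 to 4, 1 to 3 and 4 to 9 members for L12 against WT at the 3 HS stages and R-1, in that order. For L13 against WT it gave 0 at HS-1, 0 to 2 at HS-5, 0 to 1 at R-1 and 0 to 2 at R-3. For HS-5 against HS-1 it gave 4 to 6 in WT, 3 to 13 in L12 and 4 to 5 in L13. For L13 it gave 1 to 3 at HS-11 against HS-5, 8 to 18 at R-1 against HS-11 and 2 to 14 at R-3 against R-1, for WT at R-3 against R-1 1 to 3, and for the change of L12 against WT from HS-5 to HS-11 3 to 9. With a replicate block, L13 against WT at HS-11 gave 35 and WT at HS-11 against HS-5 gave 36, and no count moved by over 1.5 times.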
